A study of Mus musculus with 4 samples.

Results

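The response to hypertonic medium was described in wild-type MEFs (mouse embryonic fibroblasts), which are connective tissue cells taken from embryos and grown in culture. Of 19938 genes on the array, 10134 (50.8%) were measured in this comparison, meaning that the signal lay above the dim limit, which is the median over probe sets that name 1 gene, on at least 1 of the 2 wild-type arrays. Each gene was represented by its brightest probe set, and each result is the log2 signal of the hypertonic array minus that of the isotonic array. A difference of 1 is 2-fold. The study read 4 Affymetrix Mouse Gene 1.0 ST arrays, covering wild-type cells and cells labelled NFAT5/TonEBP KO in each of 2 media. Both wild-type groups used here were unsynchronised MEFs kept in their medium for 20 hours. The isotonic group had culture medium of an osmolality that the sources used here do not give, and the hypertonic group had medium raised to 450 mosmol/kg with NaCl. The labels name no strain, embryo age, clone or passage. Quadruplicate samples of a condition were pooled onto 1 array, so the spread among them is not seen, no statistical test was possible, and every value describes those pools.

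When the fluid around a cell becomes hypertonic, water leaves, the cell shrinks and its ions become concentrated. Cells first take up salts and later replace them with compatible organic osmolytes, such as betaine, myo-inositol, taurine and sorbitol, which do not disturb proteins. The transcription factor NFAT5, also called TonEBP, switches on many of the transporters and enzymes involved, and it is best known from the kidney medulla, where extracellular salt is always high.

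The 2 wild-type arrays were alike in scale. Their median signals over all probe sets were 4.91 and 4.90, the limits for dim genes were 5.43 (isotonic) and 5.44 (hypertonic), and Pearson's r across measured genes, which are not independent replicates, was 0.97. The cells carried the markers of their label. Of 14 fibroblast markers 11 were measured, with Col1a1, a chain of type I collagen, at 12.43 and 12.57, and vimentin (Vim) at 12.55 and 12.57 in isotonic and hypertonic medium, while Dcn, Lum and Fap were below the limit on both arrays. Of the 11, 10 lay above 0 and 4 were 1.5-fold higher in hypertonic medium (S100a4, Pdgfra, Col3a1 and Pdgfrb), 0 were 1.5-fold lower, the lowest was Thy1 (-0.53), and the summed level of the list was 14.31 and 14.50 on the log2 scale. Of the lists for other cell types, 0 of 10 endothelial, 1 of 12 macrophage and leukocyte, 1 of 8 adipocyte, 2 of 12 skeletal muscle, 2 of 10 cartilage and bone, 4 of 10 neural and 4 of 9 epithelial markers were measured. In bulk RNA, fewer cells of a type and less RNA per cell cannot be told apart.

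Most genes read nearly the same in both media. The median difference over measured genes was -0.02, the middle 50% lay between -0.19 and 0.14, and 95% lay between -0.65 and 0.73. At the 2-fold limit 102 genes were higher in hypertonic medium (1.01% of those measured) and 42 were lower (0.414%). At 1.5-fold, 418 were higher (4.12%) and 334 lower (3.30%). The upper tail was longer than the lower. There were 17 genes at least 4-fold higher and 1, Gjb2, at least 4-fold lower. The 2-fold limit cuts a continuous range: just inside it lay Cemip2 and Ifi203 (both 1.01), and Srm, Itga6 and Slc16a1 (all -1.0), and just outside it lay Rb1 (1.0 when rounded), Col10a1 (0.99), Fkbp11 and Mettl1 (both -0.99). In knockout-labelled cells 21 of the same 10134 genes (0.207%) were at least 2-fold higher in hypertonic medium and 305 (3.01%) lower, and among the 102 the counts there were 0 and 20.

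Genes past 2-fold were spread over the range of signal but were more frequent among dim genes. Among the 1299 genes whose mean signal was below 6, 22 (1.69%) were higher and 13 lower, and among the 618 genes above 10 the counts were 4 and 0. The higher genes had a median signal of 6.14 in isotonic and 7.55 in hypertonic medium, and the lower genes 7.44 and 6.12, beside 7.58 and 7.55 for all measured genes. For 28 of the higher genes the isotonic signal, and for 14 of the lower genes the hypertonic signal, was below the dim limit, so the size of those differences is poorly determined. Among those 14 were Gjb2, Slc7a11, Pdgfb, Dhrs9, Has2 and Edn1. Lrrc8b, Stk39 and Nog, named below and lower by less than 2-fold, were also dim in hypertonic medium. For 457 genes 2 probe sets were measured. Their differences lay 0.08 apart at the median and up to 0.44 apart at the 95th percentile, which describes error within an array and not between cultures.

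**Figure D1:**
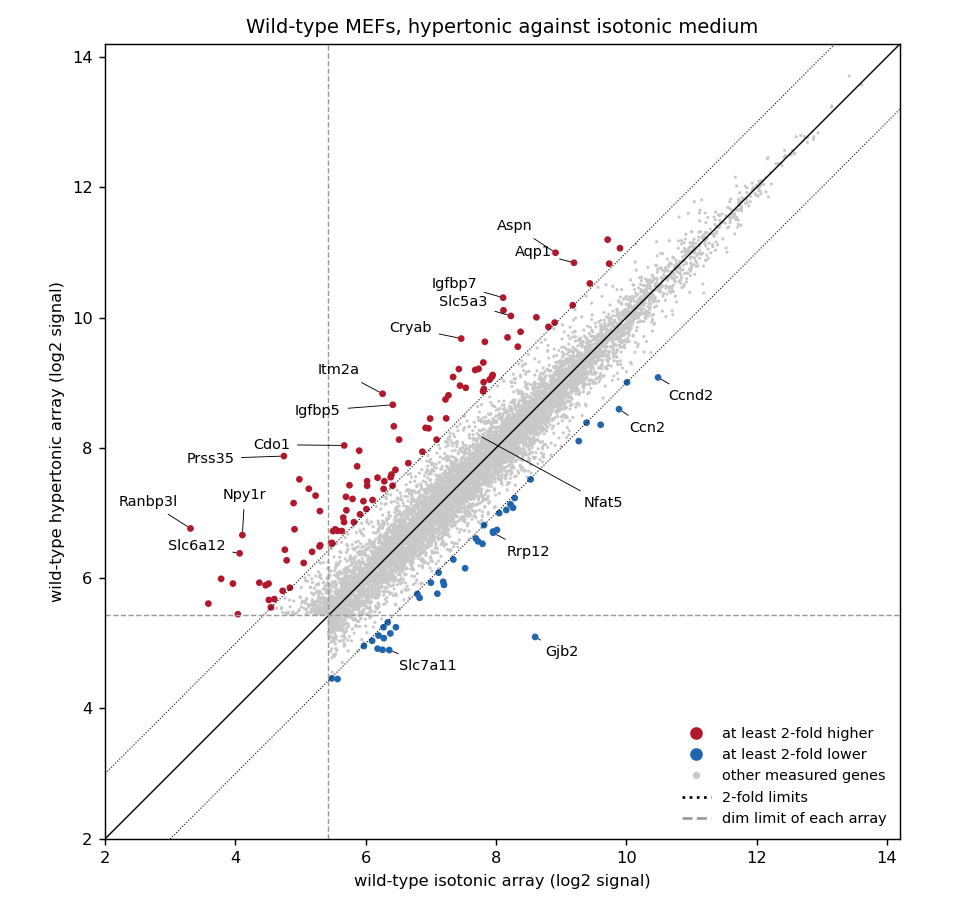
Log2 signal of each of the 10134 measured genes on the wild-type isotonic array (horizontal) and the wild-type hypertonic array (vertical), with lines of equality, of 2-fold difference (dotted) and of the dim limits of each array (dashed). The 102 higher genes (red) reach farther from the line of equality than the 42 lower ones (blue), Gjb2 excepted, and many start left of the isotonic limit of 5.43.

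The genes of organic osmolyte handling were higher at a few specific steps. Of 19 measured members, 3 were at least 2-fold and 6 at least 1.5-fold higher, 0 were 2-fold lower and 1 was 1.5-fold lower, and the median was 0.29, against -0.02 for all measured genes. Among uptake systems, the betaine transporter gene Slc6a12 read 4.06 in isotonic and 6.38 in hypertonic medium, a difference of 2.32. The myo-inositol transporter gene Slc5a3 read 8.23 and 10.03, a difference of 1.80. The isotonic signals were far apart: Slc5a3 was well above the dim limit before the salt was added, and Slc6a12 was below it. The taurine transporter gene Slc6a6, a classical tonicity gene, read 9.63 and 9.80, and Slc38a2, which imports small neutral amino acids, read 11.00 and 11.31. Both were bright in either medium and differed by 0.18 and 0.31. The creatine transporter gene Slc6a8 ran the other way, from 8.05 to 7.30, a difference of -0.75, and it was the member past 1.5-fold downward.

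Among osmolyte enzymes, genes of taurine, betaine and creatine synthesis were past 1.5-fold. Cdo1, cysteine dioxygenase, the step that commits cysteine to taurine synthesis, read 5.67 and 8.04, a difference of 2.37. Csad, cysteine sulfinate decarboxylase, which follows it in the pathway, read 7.37 and 7.96, a difference of 0.59. Both members of that pathway pair were thus higher, the second by much less. Chdh, choline dehydrogenase, which makes betaine from choline, read 4.72 and 5.48 (0.75), so it passed the dim limit only in hypertonic medium. Gamt, which completes creatine synthesis, read 6.70 and 7.31 (0.61), opposite in direction to the creatine transporter. For glycerophosphocholine, the phospholipase gene Pnpla6 differed by 0.29 and the degrading enzyme gene Gpcpd1 by 0.31, while Chka, choline kinase, which diverts choline to phospholipid, differed by -0.51. Impa1, which frees myo-inositol from its phosphate, read 8.32 and 8.22.

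Other tonicity-responsive genes leaned the same way. Of 26 measured, 3 were at least 2-fold higher and 1 lower, 5 and 1 were past 1.5-fold, 19 lay above 0, and the median was 0.25. Nfat5 itself read 7.74 and 8.19, a difference of 0.45, which is not past 1.5-fold. S100a4, a calcium-binding protein gene, read 10.15 and 11.13 (0.98), and Hspa4l, an osmotic stress chaperone of the HSP110 family, read 9.05 and 9.78 (0.73). These came after Ranbp3l, Cryab and Aqp1, the list's 3 members past 2-fold. Has2, hyaluronan synthase, went from 6.28 to 5.08, the list's lowest difference at -1.20. Ptgs2 (8.82 and 8.97) and Ccl2 (7.46 and 7.61), tonicity genes of other tissues, were close to equal.

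**Figure D2:**
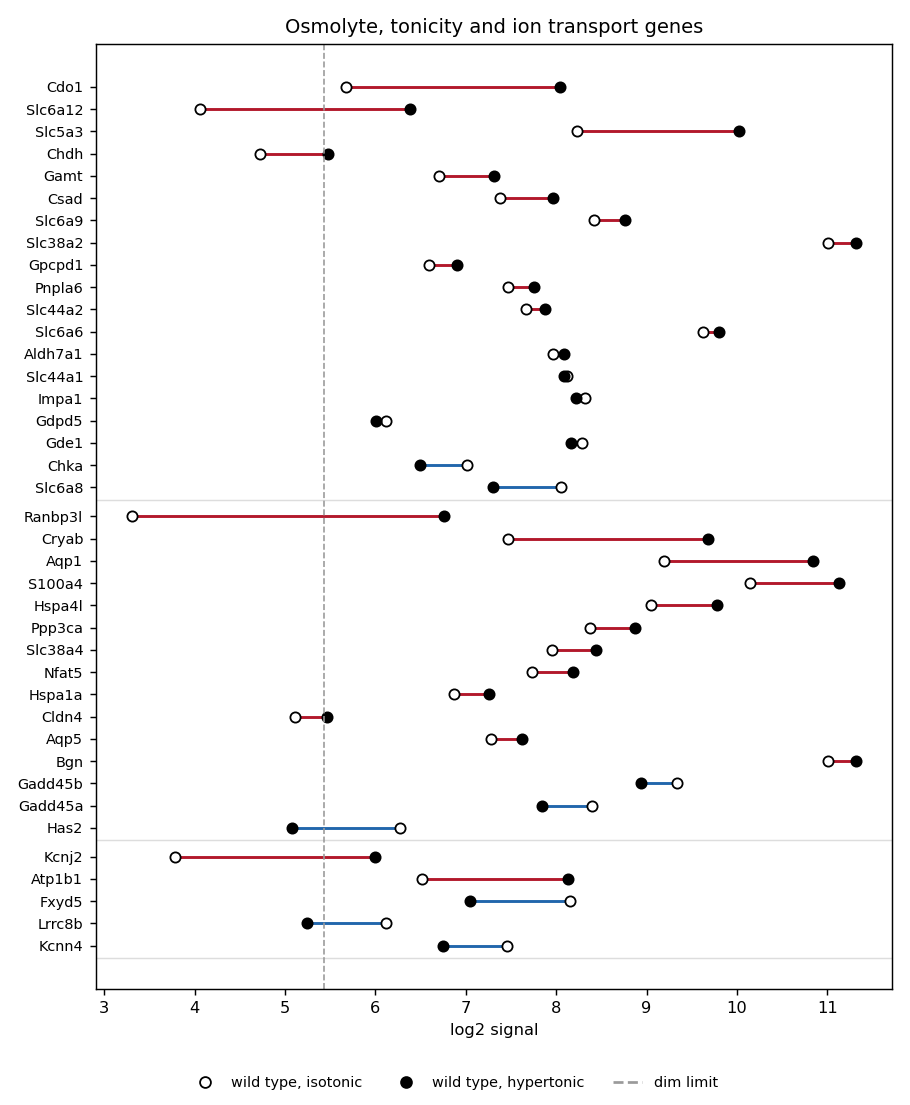
Log2 signal on the wild-type isotonic (open) and hypertonic (filled) arrays for members of the osmolyte list (top block) and for other tonicity-responsive genes with larger differences (middle). The bottom block holds Kcnj2, Atp1b1, Fxyd5, Lrrc8b and Kcnn4, which are not all of the ion transport genes past 1.5-fold. The isotonic dim limit is dashed. Red lines mark higher and blue lines lower hypertonic signal; Ranbp3l, Slc6a12 and Kcnj2 start left of the limit, whereas Slc5a3, Aqp1 and Cryab start right of it.

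Promoters of the higher genes were searched for the core of the tonicity element that NFAT5 binds, TGGAAA on either strand, in windows of 250 bases before to 50 after the RefSeq transcription start (build GRCm38.p6). Such windows were given for 76 of the 102 higher genes, as 100 promoters. The core was in 23% of them, in 14.7% of the promoters of lower genes, in 16.1% of those of all measured genes and in 21.4% of all 32851 promoters. The full consensus of the element, searched after the data had been seen, was in 8 promoters of higher genes (8.0%), against 4.96% of all promoters, 3.36% of those of measured genes and 2.94% of those of lower genes. It was also in 9.26% of those of the ribosome biogenesis list, whose genes were lower. In the osmolyte list the core was in 20.0% and the full consensus in 8.0% of 25 promoters. The stretches below are examples from genes among the 102 that hold that full consensus before the start. Gper1 and Serinc2 hold it there too and are not shown. The stretches run 5′ to 3′ on the gene's strand, and capitals mark the match. Slc6a12 is chr6:121342474-121342534 (+), Igfbp5 is chr1:72874866-72874901 (-), Pcx is chr19:4510430-4510471 (+), Omd is chr13:49582229-49582289 (+) and Ogn is chr13:49607915-49607975 (+).
Slc6a12: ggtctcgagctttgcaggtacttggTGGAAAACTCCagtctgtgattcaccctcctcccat
Igfbp5: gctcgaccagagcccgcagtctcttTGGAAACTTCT
Pcx: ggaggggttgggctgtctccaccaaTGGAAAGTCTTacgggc
Omd: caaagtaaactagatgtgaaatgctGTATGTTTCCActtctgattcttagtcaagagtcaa
Ogn: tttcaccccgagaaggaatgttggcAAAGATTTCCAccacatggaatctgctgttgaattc

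In Slc6a12 and Ogn the match ended 65 bases before the start, in Pcx 7 bases and in Igfbp5 1 base before it. In Omd and Ogn it lies on the strand opposite to the gene. Of these genes, Igfbp5, an insulin-like growth factor binding protein, read 6.42 and 8.66, and Pcx, pyruvate carboxylase, which feeds oxaloacetate into the citric acid cycle and gluconeogenesis, read 7.34 and 9.09. A match in these letters is a description and does not show that a factor binds there.

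Sodium, potassium and chloride transport genes were mixed. Of 29 measured, 2 were at least 2-fold higher and 1 lower, 2 and 4 were past 1.5-fold, and the median was -0.06. Atp1b1, the beta subunit that carries the sodium pump to the membrane, read 6.51 and 8.13 (1.62), while Fxyd5, a regulatory partner of the same pump, read 8.16 and 7.05 (-1.11). The pump's partners thus differed in opposite directions. Lrrc8b, a subunit of the volume-regulated anion channel, read 6.12 and 5.25 (-0.87), and Kcnn4, a calcium-activated potassium channel, read 7.46 and 6.75 (-0.71). Both of those channels let solute out of cells. Another potassium channel gene, Kcnj2, had the list's highest difference, at 3.78 and 5.99 (2.21), and was dim in isotonic medium.

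Genes of the kinases that sense volume and osmotic stress leaned downward by little. Of 24 measured, 0 passed 2-fold, 0 were 1.5-fold higher and 1 was 1.5-fold lower, 18 lay below 0 and 6 above, and the median was -0.16. That gene was Mapk13, the delta form of p38, at 6.30 and 5.68 (-0.62). Stk39, the kinase SPAK that activates salt cotransporters, read 5.61 and 5.04 (-0.57), Mapk14, the alpha form of p38, read 8.37 and 8.35, and Wnk1, which acts above SPAK, read 9.15 and 9.20. Heat shock genes gave a similar picture apart from Cryab, a small heat shock protein that read 7.47 and 9.68. Of 39 measured members, 1 was past 2-fold and 2 past 1.5-fold, all higher, and 26 lay below 0, with a median of -0.05. The inducible Hspa1a read 6.87 and 7.26 (0.38) and Hspb1, related to Cryab, read 8.67 and 8.41.

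Several higher genes were neighbours on the chromosome. Among protein-coding RefSeq genes on the array, taken in order, 7 adjacent pairs were both at least 2-fold higher and 0 pairs were both 2-fold lower. Of the higher and lower genes, 140 had a position. The number of pairs that as many genes would give at unrelated positions was not computed, so these counts only describe the lists. A run of 3 held Slc1a3, Ranbp3l and Nadk2. Slc1a3, a glutamate and aspartate transporter, read 6.43 and 8.33 (1.90). Ranbp3l, an exporter of SMAD proteins from the nucleus, read 3.31 and 6.76 (3.45), the highest difference of all. Nadk2, the mitochondrial NAD kinase, read 7.83 and 9.63 (1.80). The genes on either side, Nipbl (0.29) and Skp2 (8.03 and 7.94), were not past 1.5-fold. In knockout-labelled cells the same 3 genes gave -1.19, 0.15 and 0.07, with Slc1a3 dim in hypertonic medium there and Ranbp3l dim in both media.

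Another run of 3 held Aspn, Omd and Ogn, which encode small leucine-rich proteins that bind collagen. Aspn, asporin, read 8.91 and 11.00 (2.08). Omd, osteomodulin, read 4.46 and 5.89 (1.43), and Ogn, osteoglycin, read 6.92 and 8.31 (1.39). All 3 were higher together, although Omd was dim in isotonic medium. Ecm2, the next gene on one side, stayed below the dim limit (3.11 and 3.45), and Nol8 on the other side read 7.91 and 7.58. In knockout-labelled cells the 3 genes differed in the opposite direction, by -3.32, -1.65 and -3.61. All 3 were dim in hypertonic medium there, so the size of those differences is poorly determined. The remaining pairs were Ifi27l2a with Ifi27, Ifit3 with Ifit3b, and Slc5a3 with Mrps6. Mrps6, a mitochondrial ribosomal protein gene, read 9.74 and 10.83 (1.09), and because its RefSeq gene overlaps Slc5a3, their signals may not be separate measurements. Ifi27l2a and Ifi27 also overlap, and Ifit3 and Ifit3b are close copies whose probes may share targets.

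Interferon-stimulated genes, which respond to type I interferon and act against viruses, had the highest median of all lists. Of 41 measured, 13 were at least 2-fold and 29 at least 1.5-fold higher, against 1.01% and 4.12% of all measured genes, 0 were past either limit downward and 40 lay above 0. The median difference was 0.75, so most members were higher by less than 2-fold. Ifit1, which binds foreign RNA caps, read 9.44 and 10.52 (1.08), Usp18, a brake on interferon signalling, read 7.94 and 9.09 (1.16), and Bst2, the tetherin that holds virus at the cell surface, read 10.14 and 10.85 (0.72). Ddx60, a helicase gene outside that list, read 5.29 and 6.49 (1.20). Daxx had the lowest difference of the list, -0.00, and Ifi202b, Iigp1, Mx1, Oas3, Sp100 and Zbp1 were not measured.

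The genes that carry the interferon signal were not generally higher. Of 22 measured regulators, 1 was past 2-fold and 2 past 1.5-fold, both higher, 15 lay below 0 and the median was -0.05. The 2 were Irf7, an amplifier that is itself interferon-stimulated (7.27 and 8.81), and Irf9, the DNA-binding part of the ISGF3 complex (7.41 and 8.26, 0.85). Their partner Stat2 read 7.90 and 8.39 (0.48). Irf1 (7.99 and 7.98) and Irf3 (7.11 and 7.10) were equal on both arrays, as were the receptor genes Ifnar1 (7.99 and 8.06) and Ifnar2 (7.70 and 7.64). The interferon gene Ifnb1 read 2.88 on both arrays, far below the dim limit. Of the macrophage and leukocyte markers, 1 of 12, Cd68, was measured (5.56 and 5.31), Ptprc read 3.51 and 3.22, and their summed level was 7.79 and 7.86 on the log2 scale; their part in the interferon result was not tested.

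In knockout-labelled cells the same 41 genes had a median difference of -0.47, with 37 below 0 and 4 above. The difference between the 2 responses was not tested, and each rests on 1 pool a side. Ifit1 read 10.10 in isotonic and 9.29 in hypertonic knockout-labelled cells, so its isotonic level there was already above that of isotonic wild-type cells. Antigen presentation by MHC class I, which interferon also raises, leaned upward in wild-type cells with smaller differences. All 14 measured genes lay above 0, 1 was past 1.5-fold, and the median was 0.20. That gene was Tapbp, tapasin, which loads peptide onto class I molecules, at 9.69 and 10.50 (0.82).

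**Figure D3:**
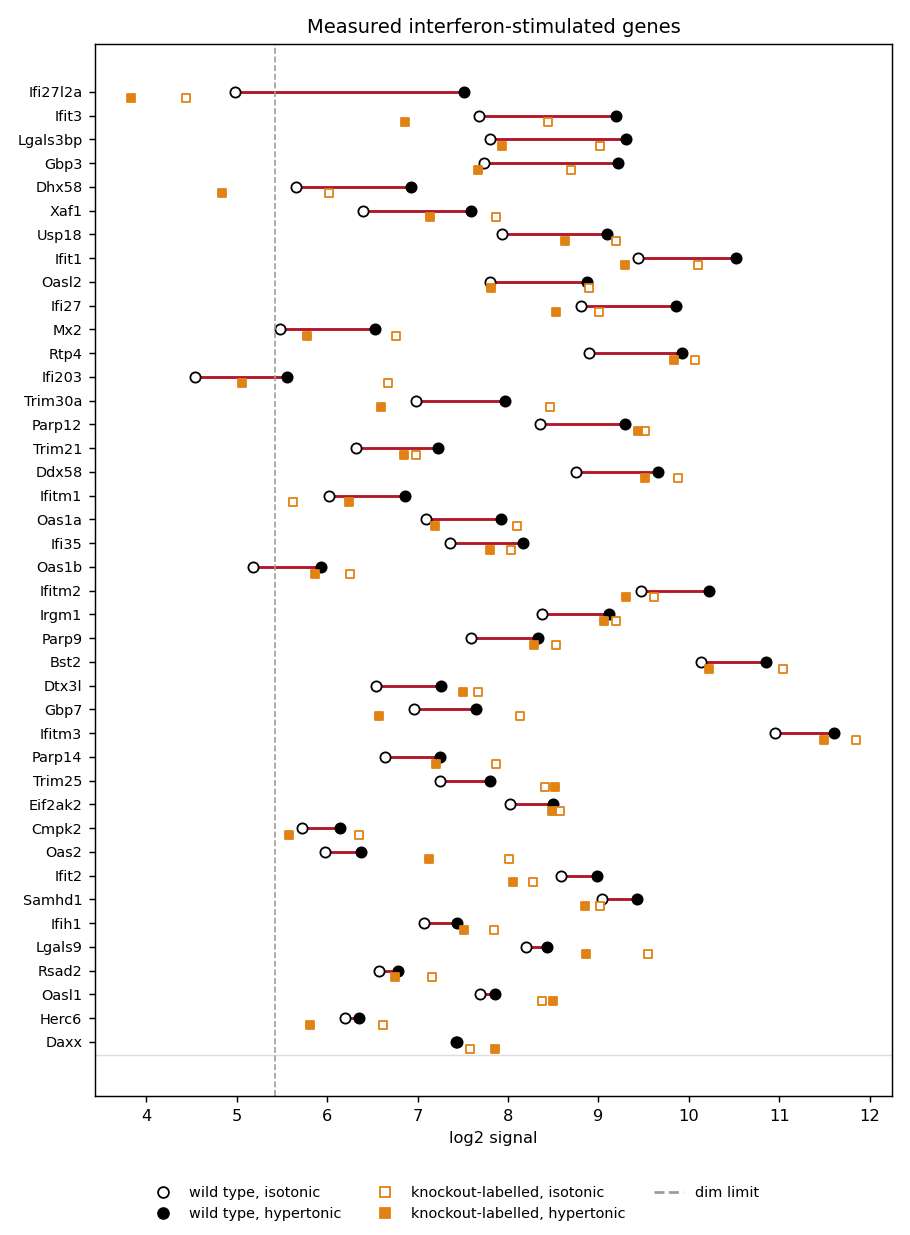
Log2 signal of the 41 measured interferon-stimulated genes on the wild-type isotonic (open circles) and hypertonic (filled circles) arrays, ordered by their difference, with the knockout-labelled isotonic (open squares) and hypertonic (filled squares) arrays beside them and the isotonic dim limit dashed. The filled circle lies right of the open circle for 40 genes, and the filled square lies left of the open square for 37.

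Promoters were given for 31 of the 41 genes. The core of the interferon-stimulated response element, GAAANNGAAA on either strand, was in 18 of these genes' 37 promoters (48.6%) and in 14% of those of all higher genes, against 3.44% of all promoters, 2.83% of those of measured genes and 2.94% of those of lower genes. The list was chosen for genes that interferon switches on, so a high share is part of its definition. Among the higher genes, Dhrs3, Fbxo36, Ranbp3l, Tgfbi and Zcwpw1, which were not chosen as interferon genes, also hold a match before the start. Their stretches are not shown. The stretches of Ifit3, chr19:34583382-34583441 (+), Ifit1, chr19:34640779-34640838 (+), Gbp3, chr3:142559980-142560039 (+), and Ifi203, chr1:173942493-173942552 (-), are shown as examples of interferon-related genes past 2-fold, with capitals marking every match. In Gbp3, matches that overlap appear as 1 run of capitals.
Ifit3: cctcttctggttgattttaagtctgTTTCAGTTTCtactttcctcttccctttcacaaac
Ifit1: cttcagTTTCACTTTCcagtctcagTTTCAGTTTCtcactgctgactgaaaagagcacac
Gbp3: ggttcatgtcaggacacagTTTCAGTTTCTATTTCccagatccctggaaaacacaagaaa
Ifi203: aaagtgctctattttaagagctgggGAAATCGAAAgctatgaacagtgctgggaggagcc

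Ifit3, Ifit1 and Gbp3 carry the element on the strand opposite to the gene, and Ifi203 carries it on the gene's own strand. The matches nearest the start end between 113 (Ifit3) and 26 (Ifi203) bases before it, and Ifit1 and Gbp3 show 2 each. Gbp3, a guanylate-binding GTPase gene, read 7.73 and 9.21, and Ifit3, a partner of Ifit1, read 7.68 and 9.20. Ifi203, a nucleic acid sensor gene, read 4.54 and 5.55, so it was dim in isotonic medium only.

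Matrix genes were higher for some families and not for others. The fibroblast markers, 10 of 11 above 0 as given above, moved with them, Col3a1, Pdgfra and Pdgfrb belong to both, and their part in the matrix and receptor results was not tested. Of 17 measured genes of the proteoglycan list, 4 were at least 2-fold higher (Aspn, Omd, Ogn and Fmod). One of the list, Has2, was 2-fold lower, and it encodes the hyaluronan synthase and not a proteoglycan. The median was 0.05 (0.22 after cyclic loess normalization and 0.32 over the 10 members above the 75th percentile). The 4 higher members are all small leucine-rich proteins. Biglycan (Bgn), a bright relative, read 11.01 and 11.32. Of 33 collagen and collagen-processing genes, 0 passed 2-fold and 6 were 1.5-fold higher, with a median of 0.15. Col12a1, which sits on the surface of fibrils, read 8.40 and 9.26 (0.85), Col3a1 read 7.92 and 8.70 (0.78), and Col6a1, of the microfibril around cells, read 8.79 and 9.49 (0.70). The main fibril gene Col1a2 read 12.06 and 12.10.

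Adhesive and matricellular proteins divided. Of 34 measured, 2 were 2-fold higher and 1 lower, 6 and 2 were past 1.5-fold, and the median was 0.03. Tgfbi, a matrix protein that binds integrins, read 7.81 and 9.01 (1.20), and periostin (Postn) read 6.66 and 7.36 (0.70). On the other side Lamb1, a basement membrane laminin chain, read 8.54 and 7.61 (-0.93). The receptors differed too. Itgb3, a vitronectin receptor subunit, read 5.82 and 6.86 (1.04), Itga11, a collagen receptor subunit, read 5.35 and 6.24 (0.89), and Itga6, a laminin receptor subunit, read 7.82 and 6.81 (-1.0). Among 23 proteases and inhibitors, Prss35, a serine protease-like gene, had the highest difference, at 4.74 and 7.87 (3.13), and was dim in isotonic medium. Genes of plasminogen activation were the lowest, Plau, urokinase, at 7.73 and 6.87 (-0.86) and its receptor gene Plaur at 7.58 and 6.60 (-0.99). Timp3 (9.19 and 9.96) and Timp1 (9.94 and 9.23), inhibitors of matrix metalloproteinases, differed in opposite directions.

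Growth factor genes differed in both directions. Of 29 measured ligands and receptors, 1 was 2-fold higher and 2 lower, and 5 and 5 were past 1.5-fold, with a median of -0.05. Fgf10, a ligand made by mesenchyme, read 5.75 and 7.43 (1.68), and Fgfr2, a receptor of that family, read 6.94 and 7.80 (0.86). The receptors for platelet-derived growth factor were higher, Pdgfra at 6.32 and 7.14 (0.83) and Pdgfrb at 9.32 and 10.01 (0.70). Their ligands were lower, though Pdgfc (-0.42) was not past 1.5-fold: Pdgfb at 6.27 and 5.25 (-1.03), Pdgfd at 7.75 and 6.85 (-0.91) and Pdgfa at 7.0 and 6.30 (-0.70). Hbegf, a ligand of the epidermal growth factor receptor, read 7.69 and 6.61 (-1.08), and Vegfa, which drives vessel growth, read 7.78 and 7.17 (-0.61). Gdnf, a neurotrophic factor outside that list, read 7.20 and 5.90 (-1.30).

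Among genes of bone morphogenetic protein signalling, with its Id targets, Id3 and Id2 had the highest differences. Of 18 measured, 2 were past 2-fold and 5 past 1.5-fold upward, 1 was past 1.5-fold downward, and the median was 0.21. Id3 (7.22 and 8.74), Id2 (7.54 and 8.92), Id1 (7.14 and 7.86) and Id4 (4.88 and 5.46), which hold back differentiation factors, made up 4 of those 5, the last one dim in isotonic medium. All 4 Id genes were thus higher. The extracellular antagonists differed in direction, with gremlin (Grem1) at 7.41 and 8.10 (0.70) and noggin (Nog) at 5.73 and 4.89 (-0.85). In the insulin-like growth factor system, Igfbp4, a binding protein, read 7.41 and 8.07 (0.66) and was the third of 3 members of 13 past 1.5-fold, after Igfbp5 and Igfbp7. For retinoid handling, 2 of 12 measured genes were 2-fold higher and 1 lower: Rarb, a retinoic acid receptor, read 5.70 and 7.25 (1.55), Dhrs3, which turns retinal back to retinol, read 5.30 and 6.51 (1.20), and Dhrs9, which makes retinal, read 6.20 and 5.12 (-1.08).

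Further higher genes belong to none of these families. Itm2a, a membrane protein gene, read 6.26 and 8.83 (2.57), Npy1r, a neuropeptide Y receptor, read 4.11 and 6.66 (2.56), and Slco4a1, an organic anion transporter, read 4.89 and 7.15 (2.26). Crispld2, a secreted protein gene, read 5.87 and 7.72 (1.85), and Lrrn3, a leucine-rich membrane protein gene, read 3.96 and 5.92 (1.96). Of these 5, only Itm2a and Crispld2 were above the dim limit in isotonic medium. Penk, the precursor of enkephalin peptides, read 8.11 and 10.11 (2.0), and Npr1, the receptor for atrial natriuretic peptide, read 5.23 and 7.27 (2.04). Il15, a cytokine for lymphocytes, read 3.58 and 5.61 (2.03), starting well below the dim limit. Apod, a lipid carrier of resting fibroblasts, read 5.90 and 7.96 (2.06). Lipid, purine and energy genes were also present. Ampd3, AMP deaminase, read 5.30 and 7.03 (1.73), Phyh, a peroxisomal enzyme of branched fatty acid breakdown, read 6.27 and 7.37 (1.10), and Car5b, a mitochondrial carbonic anhydrase, read 7.90 and 9.05 (1.15). Ank, a membrane exporter of pyrophosphate, read 8.18 and 9.70 (1.52), and Cd24a, a surface glycoprotein gene, was bright at 9.71 and 11.20 (1.48).

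Single stress and cell death genes were higher, not all of them past 2-fold. Sesn1, a sestrin that restrains growth signalling through mTORC1, read 7.45 and 8.96 (1.51). Trp53inp1, a stress protein that p53 induces, read 7.45 and 8.36 (0.92) and Bcl2l11, the death promoter BIM, read 5.96 and 7.18 (1.22). As a whole, however, p53 targets did not lean upward. Of 26 measured, 2 were 2-fold higher, 0 lower, 3 and 3 were past 1.5-fold, 19 lay below 0 and the median was -0.16, with Aen, a nuclease, at 7.08 and 6.22 (-0.86) and Plk2, a kinase, at a difference of -0.83. Of 4 measured complement genes, 1 was 2-fold and 2 were 1.5-fold higher: Serping1, the inhibitor of the first complement component, read 4.51 and 5.92 (1.41), and the scavenger collectin gene Colec12 read 8.89 and 9.83 (0.94). Thra, a thyroid hormone receptor, read 7.95 and 9.12 (1.17), and Nr1d1, which overlaps it on the other strand, differed by -0.14.

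Genes of ribosome biogenesis and the nucleolus had the lowest median of all lists. Of 53 measured, 52 lay below 0, 22 were at least 1.5-fold lower, against 3.30% of all measured genes, 0 were 1.5-fold higher, and the median was -0.55. The differences were moderate, and 1 gene, Rrp12, passed 2-fold. Heatr1, of the small subunit processome, read 8.84 and 7.89 (-0.96), Mybbp1a, a nucleolar partner of MYB, read 9.64 and 8.76 (-0.88), and Polr1b, a core subunit of RNA polymerase I, read 8.30 and 7.43 (-0.87). Nop56, of the box C/D particle, read 10.07 and 9.31 (-0.75), and nucleolin (Ncl) read 10.55 and 10.10 (-0.46). Of 28 cytosolic ribosomal protein genes 0 were past 1.5-fold, and they lay between -0.30 and 0.15.

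Genes of polyamine, nucleotide and one-carbon synthesis, many of them MYC targets, were lower in the same way. Of 28 measured, 25 lay below 0, 8 were 1.5-fold lower and 1 higher, and the median was -0.39. Srm, spermidine synthase, read 10.01 and 9.01 (-1.0), Cad, which opens pyrimidine synthesis, read 9.32 and 8.50 (-0.82), Pfas, of purine synthesis, read 8.69 and 7.92 (-0.77), and Mthfd1l, of mitochondrial folate metabolism, read 8.71 and 7.99 (-0.73). Myc itself read 8.22 and 7.53 (-0.69), while Mxd4, which opposes it at its binding sites, read 8.24 and 9.0 (0.76). The E-box CACGTG, which MYC can bind, was in 20.4% of the 54 promoters of the ribosome biogenesis list, against 7.15% of all promoters, 10.5% of those of measured genes, 11.8% of those of lower genes and 5.0% of those of higher genes. Those of Nop2, an rRNA methyltransferase, at chr6:125131798-125131853 (+), and Rrn3, which starts RNA polymerase I, at chr16:13780626-13780681 (+), are shown as examples with the E-box in capitals. Nop2 differed by -0.71 and Rrn3 by -0.45. A part of MYC in these differences was not tested, and a match does not show that MYC binds there.
Nop2: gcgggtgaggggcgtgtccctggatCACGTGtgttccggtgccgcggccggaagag
Rrn3: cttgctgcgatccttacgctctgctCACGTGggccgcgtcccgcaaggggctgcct

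Genes of the amino acid stress response, which ATF4 switches on when amino acids run short, were lower too. Of 36 measured, 31 lay below 0, 3 were 2-fold and 10 were 1.5-fold lower, 1 was 1.5-fold higher, and the median was -0.45. In knockout-labelled cells the same 36 genes were lower too, with a median of -0.38, 27 below 0 and 9 above. Slc7a11, the cystine importer, read 6.36 and 4.90 (-1.46), and Slc7a1, an importer of arginine and lysine, read 8.26 and 7.08 (-1.18). Cth, which makes cysteine, read 7.82 and 6.84 (-0.98), and Chac1, which breaks down glutathione, read 7.67 and 7.01 (-0.66). Cysteine supply genes were thus lower while Cdo1, which consumes cysteine, was higher. Asns, asparagine synthetase, read 10.70 and 10.11 (-0.60), and Trib3, an inhibitor of the same pathway, read 7.98 and 7.35 (-0.63). The exception past 1.5-fold was Nupr1, a stress-induced chromatin protein, at 8.43 and 9.28 (0.85). All 18 measured aminoacyl-tRNA synthetase genes lay within 1.5-fold, 17 of them below 0, with a median of -0.36. Their median in knockout-labelled cells was -0.26, also with 17 below 0.

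The core of the amino acid response element, TGATGNAA on either strand, was in 27.0% of the 37 promoters of this list, which was chosen from known ATF4 targets, against 3.97% of all promoters and 2.18% of those of measured genes. It was in 8.82% of promoters of lower genes and 5.0% of those of higher genes. The stretches of Slc7a11, chr3:50443628-50443685 (-), Atf3, chr1:191183411-191183468 (-), Chac1, chr2:119351024-119351081 (+), Asns, chr6:7693210-7693257 (-), and Nupr1, chr7:126625548-126625605 (-), are shown since the first 4 were lower and Nupr1 was higher while all hold the match, in capitals. Slc7a11 holds 2.
Slc7a11: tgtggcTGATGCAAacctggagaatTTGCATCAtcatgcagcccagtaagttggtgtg
Atf3: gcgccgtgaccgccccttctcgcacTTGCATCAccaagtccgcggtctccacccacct
Chac1: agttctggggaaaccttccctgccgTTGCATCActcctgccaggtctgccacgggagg
Asns: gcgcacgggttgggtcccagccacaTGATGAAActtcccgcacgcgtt
Nupr1: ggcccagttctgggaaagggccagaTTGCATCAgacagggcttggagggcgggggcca

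The 8 letters on the strand opposite to the gene were the same in Slc7a11, Atf3, Chac1 and Nupr1, and Slc7a11 holds them on its own strand too, so genes with identical matches differed in direction. The match in Asns, on the gene's own strand, has another base at the free position.

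Growth factor signalling targets were lower as well. Of 21 measured genes of ERK output and feedback, 17 lay below 0, 1 was 2-fold and 7 were 1.5-fold lower, 1 was 1.5-fold higher, and the median was -0.32. Dusp14, a phosphatase that acts on mitogen-activated kinases, read 8.64 and 7.76 (-0.88), and Hmga2, a chromatin protein of growing embryonic cells, read 8.17 and 7.36 (-0.82). The gene past 1.5-fold upward was Dusp1, another such phosphatase, at 9.02 and 9.89 (0.87). Of 25 immediate early genes, 21 lay below 0, 2 were 2-fold and 6 were 1.5-fold lower, 1 was 1.5-fold higher, and the median was also -0.32, with Jun at 8.29 and 7.23 (-1.06) and Atf3 at 6.83 and 5.70 (-1.13). In knockout-labelled cells the medians of the ERK and immediate early lists were 0.37 and 0.30. Of 22 YAP and TEAD targets, 2 were lower by 2-fold: Ccn2, a matricellular growth modulator, read 9.89 and 8.59 (-1.29) and Ankrd1, a stress-responsive nuclear protein, read 7.95 and 6.72 (-1.24). Their list had a median of -0.13.

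**Figure D4:**
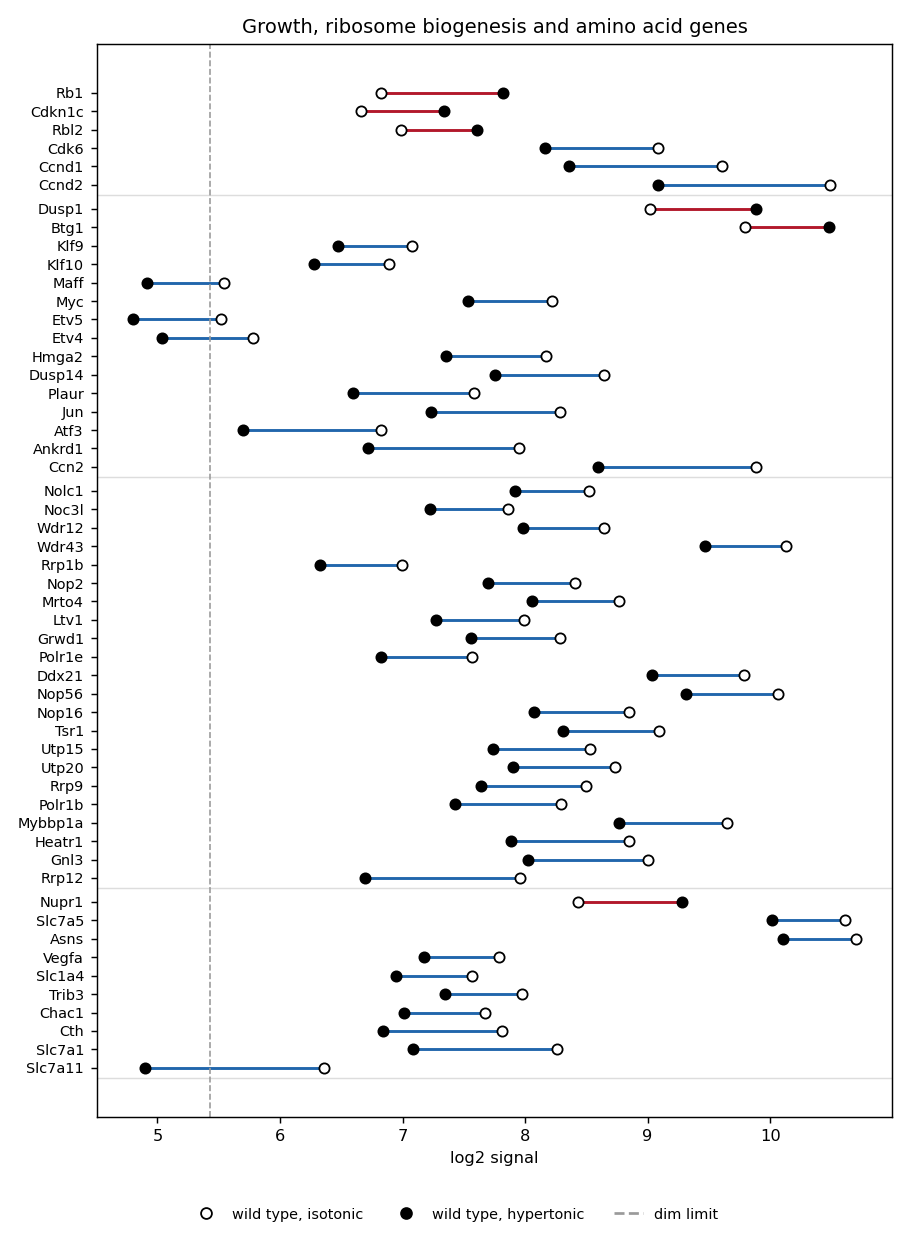
Log2 signal on the wild-type isotonic (open) and hypertonic (filled) arrays for every list member past 1.5-fold, in blocks for D cyclins and their partners, immediate early, ERK and YAP targets, ribosome biogenesis and the amino acid stress response (a gene in several lists is drawn in the first), with the isotonic dim limit dashed. Blue lines mark lower and red lines higher hypertonic signal; Rb1, Cdkn1c, Rbl2, Dusp1, Btg1 and Nupr1 are the red ones.

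Cell cycle genes differed at entry and not later. Ccnd2 (10.49 and 9.08) and Ccnd1 (9.61 and 8.36), the D cyclins that drive cells out of G1, were 2-fold lower, and their kinase gene Cdk6 read 9.08 and 8.16 (-0.92). Rb1, the retinoblastoma protein that they inactivate, read 6.82 and 7.82 (1.0), its relative Rbl2 read 6.98 and 7.60 (0.62), and the kinase inhibitor gene Cdkn1c read 6.66 and 7.34 (0.68). Of the 20 measured genes, the 3 past 1.5-fold downward were thus drivers and the 3 upward were brakes, and the median was 0.09. Cdk4 and Ccnd3 differed by 0.04 and 0.14. Of 29 genes of S phase and 29 of G2 and mitosis, 0 were past 1.5-fold, with medians of -0.03 and -0.00.

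Metabolic genes differed singly. Of 32 genes of glycolysis and hypoxia, 2 were 2-fold lower, 2 were 1.5-fold higher and 4 lower, and the median was -0.10. Hk2, hexokinase, read 7.79 and 6.53 (-1.26), and Slc16a1, a lactate transporter, read 9.39 and 8.39 (-1.0), while Pfkm, of phosphofructokinase, read 8.60 and 9.37 (0.77) and Hif1a read 9.57 and 10.46 (0.90). Of 26 NRF2 and glutathione genes, Nqo1, a quinone reductase (7.25 and 8.08, 0.83), and Gstm1, a glutathione transferase (7.22 and 8.10, 0.87), were higher, and the metallothionein genes Mt2 (10.38 and 9.46, -0.92) and Mt1 (11.17 and 10.51, -0.66) were lower. Of 28 genes of the endoplasmic reticulum, 1 was 1.5-fold higher and 1 lower, 23 lay below 0 and the median was -0.10. The higher one was Crebrf, a regulator of the stress response there, at 7.05 and 7.65 (0.60), and the lower one was Xbp1, a transcription factor of that response, at 8.59 and 7.84 (-0.75).

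Gjb2, connexin 26 of gap junctions, had the lowest difference, from 8.60 to 5.10 (-3.50), and was dim in hypertonic medium. Its list had a median of 0.16, with 8 of 14 measured genes above 0, and the other 13 measured connexin and junction genes lay between -0.61 (Gjc1) and 0.67 (Cdh11). Tnfrsf12a, the receptor for TWEAK, read 9.27 and 8.10 (-1.17). Edn1, endothelin, read 6.10 and 5.04 (-1.06), and Lrp8, a lipoprotein receptor, read 7.72 and 6.57 (-1.16). Of 20 contractile genes of smooth muscle and myofibroblasts, 3 were 1.5-fold higher and 0 lower, 12 lay above 0 and 8 below, and the median was 0.08. The 3 were Myl9, a myosin light chain, at 7.51 and 8.48 (0.97), Mrtfa, a coactivator of such genes, at 7.01 and 7.75 (0.74), and Csrp1, a LIM domain protein, at 10.81 and 11.54 (0.73). Tagln2 had the lowest difference of the list, -0.55, and Acta2, smooth muscle actin, read 11.13 and 11.65 (0.52).

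Several groups lay close to equality. By its brightest probe set, no measured gene of oxidative phosphorylation (41 genes, median 0.05), the proteasome (31, -0.11), cholesterol synthesis (26, -0.07) or housekeeping (12, 0.01) was past 1.5-fold. Cycs, the lowest of the first list, has 3 probe sets, which ran from -0.32 to 1.29. Housekeeping genes lay between -0.35 and 0.24. Medians were also small, with some members past 1.5-fold, in WNT (23 genes, 3 past 1.5-fold upward and 0 downward, median 0.16), TGF-beta (21, 1 and 0, -0.03) and integrin genes (18, 2 and 1, 0.01). The same held for chemokine and cytokine (20, 3 and 1, -0.01), lysosome (34, 2 and 0, 0.08), histone (11, 1 and 0, 0.06) and circadian clock genes (15, 0 and 2, -0.19). Among these lists, Itgb3 (1.04), Itga6 (-1.0), Ptgfr (1.49) and Ciart (-1.07) were past 2-fold. The list medians ran from -0.55 (ribosome biogenesis) to 0.75 (interferon-stimulated genes).

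**Figure D5:**
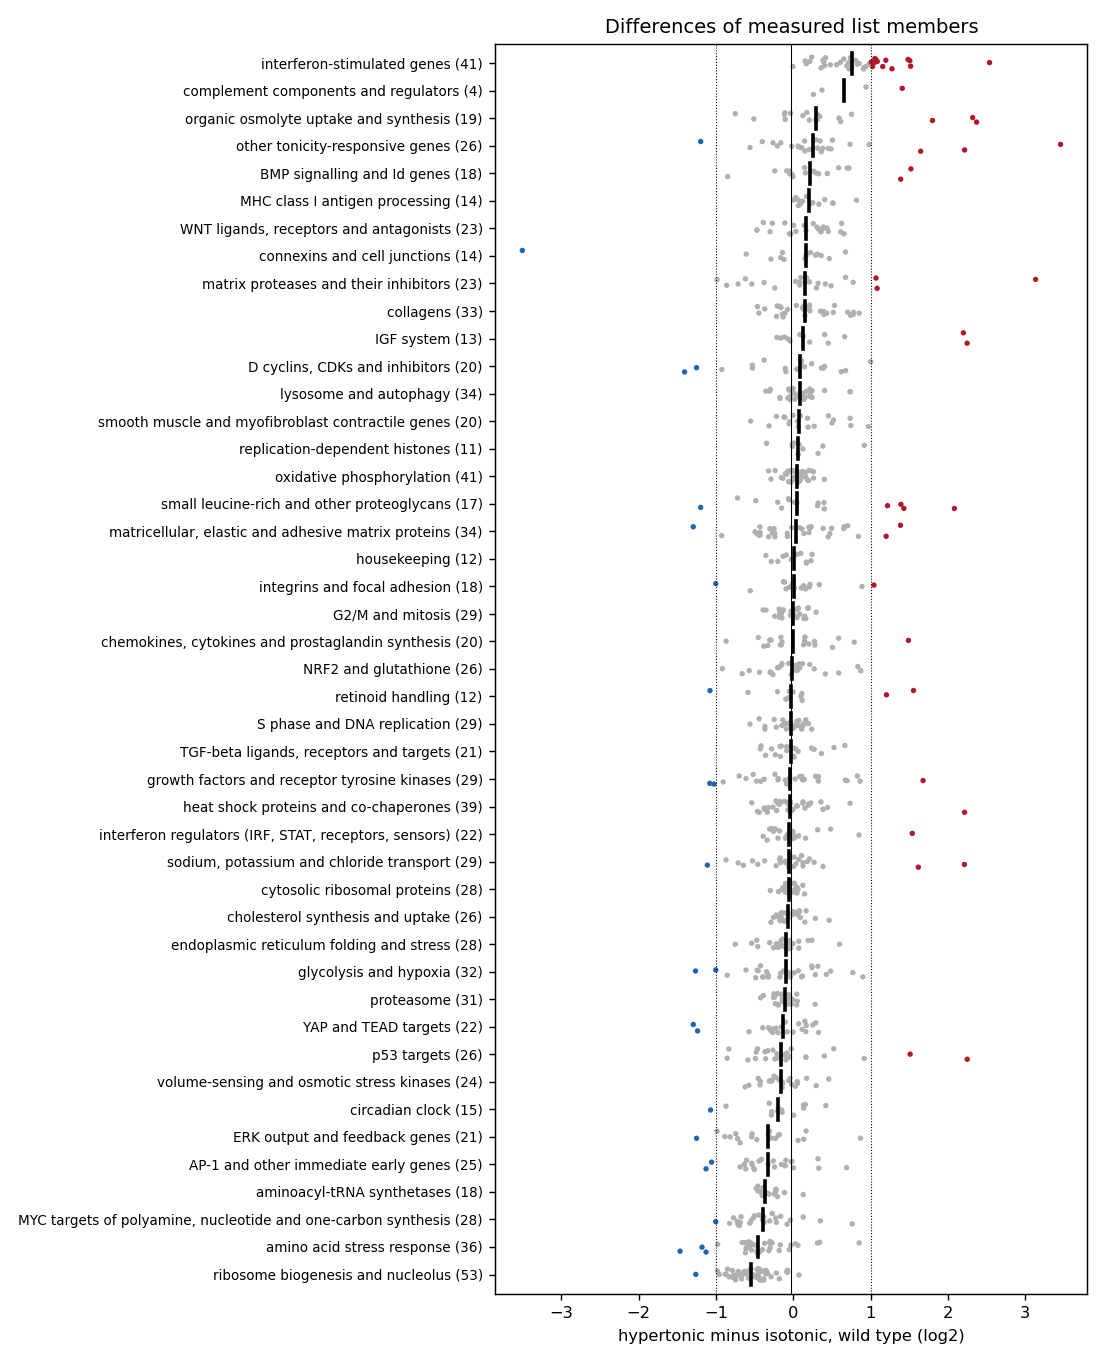
Difference of each measured member (points) of each pathway list and of the housekeeping list on the log2 scale, hypertonic minus isotonic in wild-type cells, with the number measured in parentheses, the list median as a bar, 2-fold limits dotted and the median of all measured genes as a solid line. Interferon-stimulated genes have the highest median (0.75) and ribosome biogenesis the lowest (-0.55), and red and blue points are members past 2-fold.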

How the data were processed

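The authors deposited log2 signal, with 1 value for each probe set on each array. The log2 scale was read from the values; MAS5 is named in the submitters' processing notes, and the sources used here do not say how arrays were normalized to each other. Values were used as deposited. The platform annotation named 1 gene for 21789 of 35557 probe sets (21698 matched RefSeq), several for 1621 and none for 12147, and only the first kind gave gene results. For list members 28 older symbols were updated through RefSeq.

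The hypertonic response of wild-type cells was described with 1 array a side, so no p-value or error could be computed. The rule for named genes took Nfat5, the 40 highest and 25 lowest differences without provisional symbols, any other gene past 2-fold described by function, the housekeeping genes and, from 52 further lists, every member past 1.5-fold plus the 4 largest differences of each. The text names a subset of these; the other genes it names, such as chromosomal neighbours and list members near equality, were chosen after their values were seen. The members and lists were chosen with earlier results of these data known. The Nfat5 probe set does not check the knockout label (8.03 and 8.24 in isotonic and hypertonic knockout-labelled cells), and those arrays serve only for comparison.

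Motifs were searched in RefSeq promoters (27025 genes), and neighbours were taken in RefSeq order. Counting was tested on simulated data. Alternatives were quantile and cyclic loess normalization, centring, other dim limits, averaged probe sets and a 1.5-fold limit. Calculations used R 4.3.3 with limma 3.58.1 for normalization, and otherwise Python 3.11.15 with numpy 2.4.6, pandas 2.3.3 and matplotlib 3.10.9.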

Additional observations from a re-analysis of the deposited data

Results flagged for a closer look

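Of 102 genes past 2-fold upward in wild-type cells, 20 were at least 2-fold lower in hypertonic medium in knockout-labelled cells, where 305 of all 10134 measured genes (3.01%) were 2-fold lower. The 102 were chosen by the wild-type response alone. This difference between the responses was not tested, since each rests on 1 pool a side. In knockout-labelled cells, the matrix and secreted protein genes among them gave Ogn -3.61, Aspn -3.32, Tnc -2.26, Omd -1.65, Olfml3 -1.35, Igsf10 -1.25 and Lgals3bp -1.09. The interferon-related genes gave Ddx60 -1.75, Ifi203 -1.62, Ifit3 -1.58, Ifit3b -1.20, Dhx58 -1.19, Oasl2 -1.09, Irf7 -1.07 and Gbp3 -1.02. The others were Enpp3, an ectonucleotidase, at -2.11, Slc1a3 at -1.19, Nrep at -1.19, Cped1 at -1.04 and Thra at -1.02. Ogn, Aspn, Tnc, Omd, Igsf10, Ddx60, Ifi203, Dhx58, Enpp3, Slc1a3 and Cped1 were below the knockout-labelled hypertonic dim limit of 5.41. The size of those differences is therefore poorly determined. Some of the 102, such as Ranbp3l (3.22 and 3.38), were dim on both knockout-labelled arrays, which left little room for a lower reading. In knockout-labelled cells 0 of the 102 were 2-fold higher, where 21 of all 10134 genes (0.207%) were, so this 0 is near that share. The median of the 102 there was -0.29 against -0.09 for all genes measured in wild-type cells.

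Probe sets outside the gene results also differed between the wild-type arrays. Of 765 measured probe sets that name several genes, 5 were at least 2-fold higher (0.654%) and 1 lower (0.131%). Of 4210 measured probe sets with no gene name, 67 were higher (1.59%) and 152 lower (3.61%), so lower ones were the more frequent there, the reverse of the named genes.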

How the results depend on the processing

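The 102 higher and 42 lower genes became 49 and 20 with the dim limit at the 75th percentile, where fewer genes are measured, and 418 and 334 at 1.5-fold. Under the other 6 alternatives the counts ranged from 74 to 115 and from 28 to 47. Quantile normalization, cyclic loess and centring kept all 102 higher genes and 35, 34 and 35 of the lower ones, and moved the median of all genes from -0.02 to -0.00, 0.01 and 0.00. The higher share of genes past 2-fold was 70.8% as deposited and at most 76.7% (loess).

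List medians kept their sides in the large groups: interferon-stimulated genes 0.74 to 0.81, ribosome biogenesis -0.55 to -0.51, amino acid stress -0.45 to -0.37 and osmolytes 0.15 to 0.33. The medians of matricellular proteins (-0.13) and the circadian clock (0.13) changed sign at the 75th percentile, where fewer members are measured. List medians moved by about 0.15 or more for 6 lists there and for 7 lists without a dim limit. Without that limit the medians of complement, WNT and connexin and junction genes fell from 0.65, 0.16 and 0.16 to 0.05, 0.00 and -0.03. With probe sets of a gene averaged, 5 genes taken by the naming rule moved by about 0.15 or more. Among them Bnip3 gave -0.64 and Ciart -0.59. No paired analysis was possible because each group is 1 array of pooled samples. Depth does not apply to arrays; their number limits the precision.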
